A study of Bos taurus with 21 samples.

Results

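MHC class II genes were examined in the RNA of somatic cells from the milk of 21 Holstein cows. The genes were taken by name, as every symbol starting with BOLA-D together with CD74 and CIITA. This gave 12 gene rows of 13570 in the count tables. BOLA-DMA, BOLA-DMB, BOLA-DOA, BOLA-DOB, BOLA-DQA2, BOLA-DQA5, BOLA-DQB, BOLA-DRB3, BOLA-DYA, BOLA-DYB and CD74 had a count in at least 1 cow and were tested, among 12333 such genes in all. BOLA-DQA1 had a row with 0 counts in all 21 cows, which allows at most 3 counts per cow and counting error only. CIITA had no row under that symbol and was not analysed here. The cows were 9 of the high yielding group (HY) and 12 of the low yielding group (LY), all of 1 breed, and they differed in parity (2 to 4 in both groups) and in lactation period (41 to 268 days in HY and 52 to 270 days in LY). Each cow gave 1 library and is a separate animal, and the labels also give each cow's milk yield, milk fat, milk protein and milk solid, without units. Each trait is negative in some cows, so the values are not measured amounts. The study took its normalized milk yield from the Korea Type-Production Index and called it a breeding value in a figure. It formed HY and LY by the same index. Milk was sampled as a mixture of cells with no sorting. A lower level can therefore come from fewer cells of a type or from less RNA per cell, which cannot be told apart here.

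MHC class II molecules are pairs of an alpha and a beta chain on the surface of antigen-presenting cells, where they show peptides from engulfed material to CD4 T cells. In cattle the presenting pairs are DR and DQ. CD74, the invariant chain, holds new class II molecules until they reach the endosome, DM then exchanges the remaining piece of CD74 for peptide, and DO inhibits DM. DY is a pair found in ruminants. CIITA is the master regulator of these genes. In milk, macrophages, B cells and dendritic cells are known to carry class II, while neutrophils and shed mammary epithelial cells make up much of the remaining cell population.

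The libraries held 7878557 to 28541904 counts on genes. Levels below are counts scaled to library size (CPM) with the TMM factors of edgeR, which ranged from 0.460 to 1.48. The factors were lowest in HY cows 3262 and 3280, whose RNA was rich in casein transcripts. Casein genes took from 0.0876% to 44.1% of the counts in HY and from 0.164% to 26.8% in LY. By the mapping rates of the study, 16 cows formed a lower class and 5 cows (1 HY, 4 LY) a higher class. The macrophage markers were present in every cow. Of 16 listed markers 11 had a row (CD14, CD68, CD163, CSF1R, MSR1, C1QA, C1QB, C1QC, MERTK, VSIG4 and FCGR1A) and none of these was at 0 in all cows. They summed to between 0.0764% and 0.878% of the counts in HY and between 0.164% and 0.795% in LY.

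Together the class II rows held between 0.0558% and 0.915% of a cow's counts, and the median share was 0.276% for HY and 0.269% for LY. CD74 ranged from 967 to 5409 CPM in HY, with a median of 2862, and from 944 to 7795 CPM in LY, with a median of 2307. BOLA-DRB3, the beta chain of the DR pair, ranged from 100.2 to 957 CPM in HY, with a median of 338, and from 152 to 849 CPM in LY, with a median of 364. In both genes the groups overlapped over most of their range, and the highest and lowest cows lay 8.26 times apart for CD74 and 9.55 times for BOLA-DRB3. BOLA-DMA, the alpha chain of the peptide exchanger, ranged from 4.52 to 139.6 CPM in HY, with a median of 28.4, and from 13.5 to 60.9 CPM in LY, with a median of 41.0. Its partner BOLA-DMB ranged from 40.7 to 287 CPM in HY, with a median of 71.9, and from 35.9 to 148 CPM in LY, with a median of 102. The DM genes thus spread more widely among the HY cows, which held both the highest BOLA-DMA (cow 2814) and the lowest (cow 3280). The inhibitor chain BOLA-DOA ranged from 1.18 to 33.9 CPM in HY, with a median of 6.38, and from 2.75 to 18.8 CPM in LY, with a median of 6.58. BOLA-DOB ranged from 1.38 to 29.8 CPM in HY, with a median of 6.47, and from 4.09 to 27.1 CPM in LY, with a median of 6.86. Both DO genes had a count in every cow, with lowest counts of 6 and 7 in cow 3280.

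**Figure D1:**
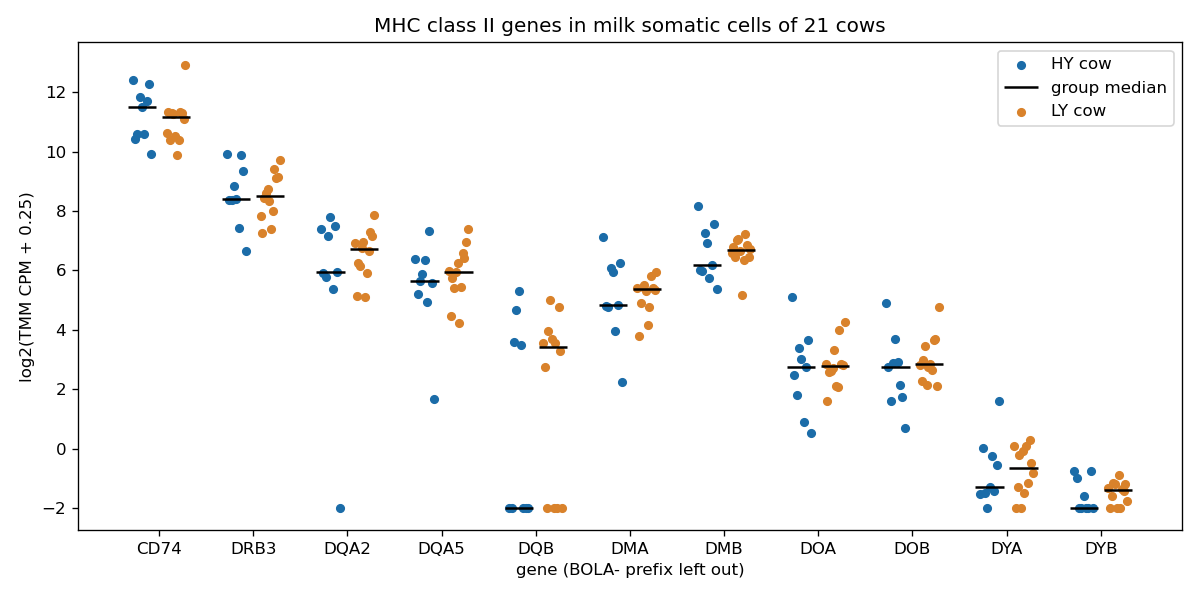
Levels of the 11 class II genes with a count, as log2(TMM CPM + 0.25) on the y axis, 1 point per cow (9 HY, 12 LY) and a line at each group median. The groups overlap for every gene, points at -2 are cows with 0 counts, and BOLA-DQB shows 9 such cows apart from the other 12.

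A few cows carried the extremes of many genes. Over the 8 class II genes with a mean count of at least 100 other than BOLA-DQB, HY cow 3280 was the lowest for 6 and among the 3 lowest for all 8. LY cow 3272 was the lowest for the other 2, BOLA-DMB and CD74. HY cow 2814 was the highest for 5, and LY cow 7643 was the highest for 3 (BOLA-DQA2, BOLA-DQA5 and CD74). Where a call on a class II gene was lost without cow 2814 or 3280, this is given beside it.

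The 8 genes rose and fell together across the 21 cows, though some pairs did so only weakly without the 2 most distant cows. Over their 28 pairs, Pearson's r of the log2 levels ranged from 0.499 to 0.927, with a median of 0.711. For BOLA-DMA and BOLA-DOA, r was 0.923 (permutation p = 1e-05, the smallest the permutations can give) and Spearman's rho was 0.906 (permutation p = 1e-05). Leaving out the 2 cows farthest from the median of BOLA-DMA gave r = 0.877, and within the 16 cows it was 0.939. For CD74 and BOLA-DRB3, r was 0.779 (permutation p = 2e-05) and rho was 0.731 (permutation p = 0.00023). Leaving out the 2 cows farthest from the median of CD74 gave r = 0.734, and within the 16 cows it was 0.767. BOLA-DOB followed the rest least, with r = 0.499 to BOLA-DMB and r = 0.645 to BOLA-DMA. Without the 2 cows farthest from the median of BOLA-DMA, the latter was 0.300. Between BOLA-DRB3 and BOLA-DOB, r was 0.500, and 0.188 without the 2 cows farthest on BOLA-DRB3. Between BOLA-DQA2 and BOLA-DMB it was 0.543, and 0.348 without the 2 cows farthest on BOLA-DQA2. Ratios between genes also varied: a cow had between 3.56 and 16.9 CD74 counts per BOLA-DRB3 count, and between 1.71 and 9 BOLA-DMB counts per BOLA-DMA count. In all, 55 pairs of the 11 genes were computed, and the p-values are not adjusted.

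In the RefSeq gene table of assembly ARS-UCD2.0, used for names and order only, 11 of the 12 class II rows were matched by symbol. The BOLA-D genes lie on 1 chromosome in 2 blocks. BOLA-DYA, BOLA-DYB, BOLA-DOB, BOLA-DMB, BOLA-DMA and BOLA-DOA form the first, with 14 genes between its ends, and the DQ and DR genes form the second, with 372 genes between BOLA-DOA and BOLA-DQA2. CD74 is on another chromosome. Correlation between the levels did not stop at the blocks, as BOLA-DMA had r = 0.818 with BOLA-DRB3 of the other block and r = 0.722 with CD74.

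Over all 21 cows, BOLA-DMA, BOLA-DMB, BOLA-DOA, BOLA-DOB and CD74 rose with the macrophage genes, with low correlations for most of them within LY (given below). The macrophage score of a cow was the mean of log2(TMM CPM + 0.25) over the 11 macrophage markers with a row, so that 1 unit is a 2-fold higher geometric mean of the markers. It ran from 5.85 in cow 3280 to 8.33 in LY cow 3198. In edgeR's quasi-likelihood test, with genes called at a Benjamini-Hochberg adjusted p under 0.1 over all genes, 5 of the 11 class II genes were called higher with the score, against 10.1% of all genes tested outside the macrophage list. For lower with the score it was 1 of 11, BOLA-DYA, against 11.5%, so not above the share of all genes. The median slope was 0.65 over the 11 genes and 0.01 over all genes.

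BOLA-DMA rose by 1.04 ± 0.22 (SE) on the log2 scale per unit of macrophage score, with an edgeR adjusted p of 0.00338. Its r with the score was 0.739 (permutation p = 0.00014) and rho was 0.778 (permutation p = 0.00014), with r = 0.721 without the 2 most distant cows and r = 0.763 within the 16 cows. BOLA-DMB rose by 0.62 ± 0.18 (adjusted p = 0.0213 by edgeR). The BOLA-DOA slope was 1.05 ± 0.29 (adjusted p = 0.0178 by edgeR), and that of BOLA-DOB was 0.88 ± 0.31 (adjusted p = 0.0557 by edgeR). CD74 rose by 0.65 ± 0.25 (adjusted p = 0.0865 by edgeR). BOLA-DRB3 had a slope close to that of CD74, 0.64 ± 0.27, and did not pass the threshold (adjusted p = 0.112 by edgeR). It did pass with DESeq2 (adjusted p = 0.0707), and in 4 of 21 edgeR fits that left out 1 cow. The DQ genes had slopes of 0.77 ± 0.40 for BOLA-DQA2 and 0.48 ± 0.36 for BOLA-DQA5 and were not called. BOLA-DQB and BOLA-DYB were not called either. BOLA-DYA fell by 1.52 ± 0.52 (adjusted p = 0.0495 by edgeR), a value that rests on 0 to 18 counts per cow.

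**Figure D2:**
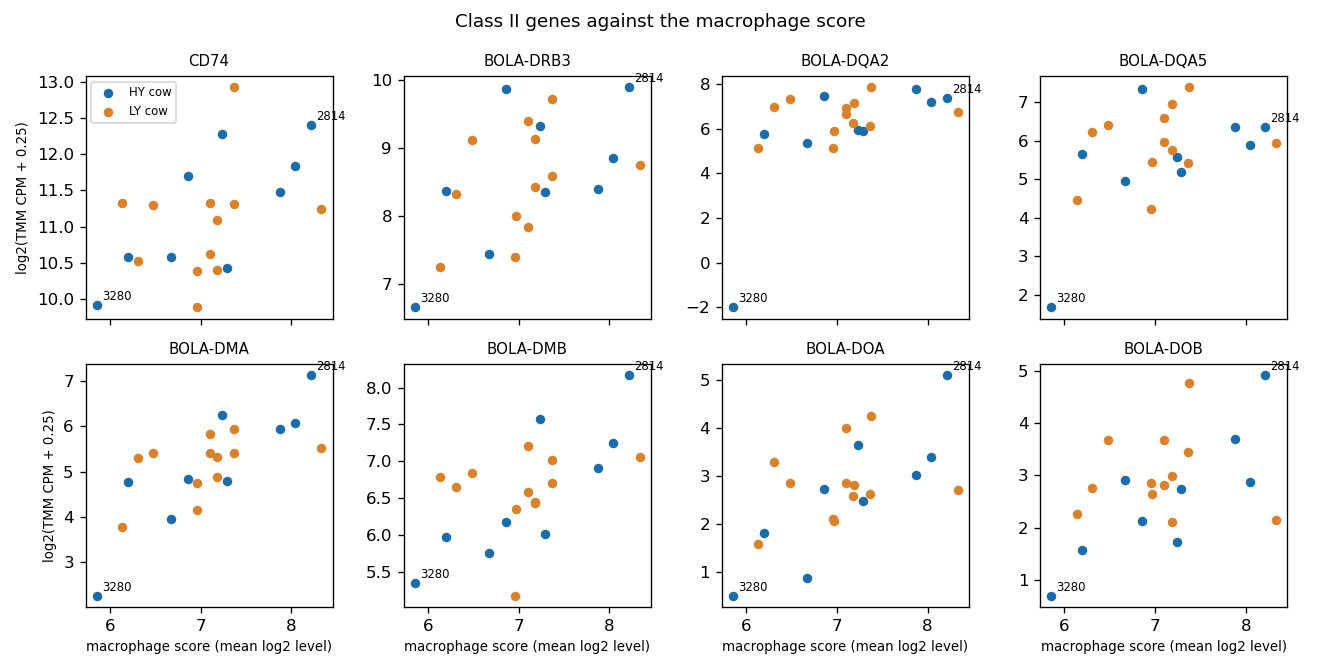
Levels of 8 class II genes, as log2(TMM CPM + 0.25), against the macrophage score of each cow (mean log2 level of 11 markers), with 1 point per cow and HY cows 2814 and 3280 labelled. BOLA-DMA has the tightest relation (r = 0.739), and cow 3280 lies at the low end of the score.

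Among the class II genes only BOLA-DMA was called in each of the 21 fits that left out 1 cow, and its highest adjusted p was 0.0334. Without cow 2814 it was the only class II gene called, with BOLA-DMB at 0.135, BOLA-DOA at 0.174 and BOLA-DOB at 0.318. CD74 was called in 15 of the 21 fits. Without cow 3280, BOLA-DMA, BOLA-DMB and BOLA-DOA were called, and the adjusted p of BOLA-DOB was 0.172, that of CD74 0.234 and that of BOLA-DYA 0.308. Other cell type scores moved with the macrophage score. Its r was 0.441 with the B cell score (0.898 within HY, -0.136 within LY) and -0.652 with the mammary epithelial score. With the B cell score as a covariate, BOLA-DMA was called (0.76 per unit, adjusted p = 0.0194 by edgeR) and no other class II gene. With the dendritic cell score as a covariate, 6 were called: BOLA-DMA, BOLA-DMB, BOLA-DOA, BOLA-DOB, BOLA-DRB3 and BOLA-DQA2. BOLA-DRB3 had 0.54 per unit (adjusted p = 0.0541 by edgeR) and BOLA-DQA2 0.93 (adjusted p = 0.0812 by edgeR). In that fit CD74 and BOLA-DYA were not called (adjusted p of 0.121 and 0.144 by edgeR). With the mammary epithelial score as a covariate, BOLA-DMA (adjusted p = 0.0642 by edgeR) and BOLA-DMB (adjusted p = 0.0903 by edgeR) were called. In place of the score, the level of CSF1R alone, the receptor for the macrophage growth factor, gave 8 of the 11 genes as higher, against 15.5% of all genes outside the list, and BOLA-DYA as lower, against 15%. BOLA-DRB3 (0.85 per unit, adjusted p = 0.00211 by edgeR), BOLA-DQA2 and BOLA-DQA5 were called in addition.

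The slope in HY minus the slope in LY had a median of 0.66 over the 11 genes and -0.04 over all genes. In edgeR's interaction test none of the 11 was called for it (adjusted p = 1 for each). The unadjusted p was 0.0182 for BOLA-DMB, with a difference of 0.86 ± 0.34, 0.0446 for BOLA-DMA and 0.0481 for BOLA-DOA. The share of all genes under 0.05 in this test was not counted. Levels of these genes were correlated with each other, so their differences are not separate observations. For BOLA-DMA, r with the score was 0.876 within the 9 HY cows and 0.482 within the 12 LY cows. For BOLA-DMB it was 0.845 within HY and 0.165 within LY, and for BOLA-DOA 0.858 and 0.247. For BOLA-DOB it was 0.842 within HY and 0.005 within LY, and for CD74 0.763 and 0.206. Cows 2814 and 3280, the highest and lowest in BOLA-DMA, are both HY. Neither these r values nor the slope differences were computed without them.

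BOLA-DRB3 and BOLA-DQA5, chains of the presenting pairs, rose with the dendritic cell genes. The dendritic cell list had a row for 8 of 11 markers (ZBTB46, BATF3, XCR1, CCR7, FSCN1, LAMP3, IRF4 and FCER1A), which took 0.00543% to 0.0633% of the counts in HY and 0.0179% to 0.0822% in LY. BOLA-DRB3 had a slope of 0.76 ± 0.18 per unit (adjusted p = 0.00459 by edgeR) and BOLA-DQA5 of 0.84 ± 0.21 (adjusted p = 0.00742 by edgeR). Both were called in each of the 21 fits with 1 cow left out, with adjusted p of at most 0.0364 and 0.0346. The number of class II genes called rose to 5 without cow 3014 and to 6 without cow 3064. BOLA-DOA was called as well (0.72 ± 0.28, adjusted p = 0.0735 by edgeR) but not within the 16 cows (0.230), nor without cow 3280 (0.253). This made 3 of 11 class II genes, against 12.7% of all genes outside the list, and 0 of 11 lower with the score, against 12.9%. For BOLA-DRB3, r was 0.723 (permutation p = 0.00028) and rho was 0.656 (permutation p = 0.00162), with r = 0.563 without the 2 most distant cows and r = 0.732 within the 16 cows. BOLA-DMB was not called here (r = 0.197). The dendritic cell score moved with other scores, with r = 0.699 to the neutrophil score (0.943 within HY) and r = -0.558 to the mammary epithelial score, and the part of these cell types in the slopes was not tested.

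BOLA-DOA, BOLA-DOB and BOLA-DMA rose with the B cell genes. Of 11 B cell markers 6 had a row, among them MS4A1, CD79A, BLK and CR2, and they were scarce, with 0.000303% to 0.0139% of the counts in HY and 0.00156% to 0.0128% in LY. Slopes per unit were 0.83 ± 0.17 for BOLA-DOA (adjusted p = 0.0116 by edgeR), 0.77 ± 0.17 for BOLA-DOB (adjusted p = 0.0203 by edgeR) and 0.69 ± 0.16 for BOLA-DMA (adjusted p = 0.0238 by edgeR), and 0.86, 0.77 and 0.77 in this order within the 16 cows. These 3 of 11 stand against 2.21% of all genes called higher, and 0 of 11 against 5.14% called lower. These calls rest on cow 3280, which had the lowest B cell score, and none of the 3 was made without it (adjusted p of 0.117, 0.201 and 0.248 in the same order). BOLA-DMA also lost its call without cow 2814 (0.106). Without cow 3198 the number called was 5. The B cell score had r = 0.468 with the dendritic cell score and r = -0.457 with the mammary epithelial score (-0.703 within HY). DO is known to be made mainly by B cells and some dendritic cells.

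With the T cell score, BOLA-DOB alone was called higher (0.47 ± 0.16, adjusted p = 0.0635 by edgeR, and not called without cow 3280 or cow 7643), 1 of 11 against 7.82% of all genes, with 0 of 11 lower against 9.19%. Without cow 2814, 3014, 3235 or 3262 the number was 2. The T cell markers, 11 of 11 with a row, took 0.00268% to 0.115% of the counts in HY and 0.00957% to 0.145% in LY. No class II gene was called with the neutrophil score in edgeR in either direction, against 7.41% of all genes higher and 4.09% lower, and none had an unadjusted p under 0.05. Of 8 neutrophil markers 7 had a row, CXCR1 was at 0 in all cows, and the list took 0.0859% to 1.16% of the counts in HY and 0.294% to 1.15% in LY. BOLA-DMA, BOLA-DOA, BOLA-DOB, BOLA-DQA5 and BOLA-DRB3 fell with the mammary epithelial score, 5 of 11 against 13.2% of all genes. BOLA-DYA rose, 1 of 11 against 14.3%, so not above the share of all genes. The mammary epithelial markers, 11 of 11 with a row, took 0.102% to 52.1% of the counts in HY and 0.248% to 30.4% in LY. The largest of the falls was that of BOLA-DOB, 0.28 ± 0.08 per unit (adjusted p = 0.016 by edgeR). Without cow 2814, 2 class II genes were called, with BOLA-DRB3 at 0.123, BOLA-DOB at 0.136, BOLA-DOA at 0.319 and BOLA-DMA at 0.490. Without cow 3280 there were 3, with BOLA-DRB3 at 0.112, BOLA-DQA5 at 0.132, BOLA-DYA at 0.167 and BOLA-DMA at 0.192. Slopes on different scores were not tested against each other, and the part of each cell type in the levels was not tested.

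**Figure D3:**
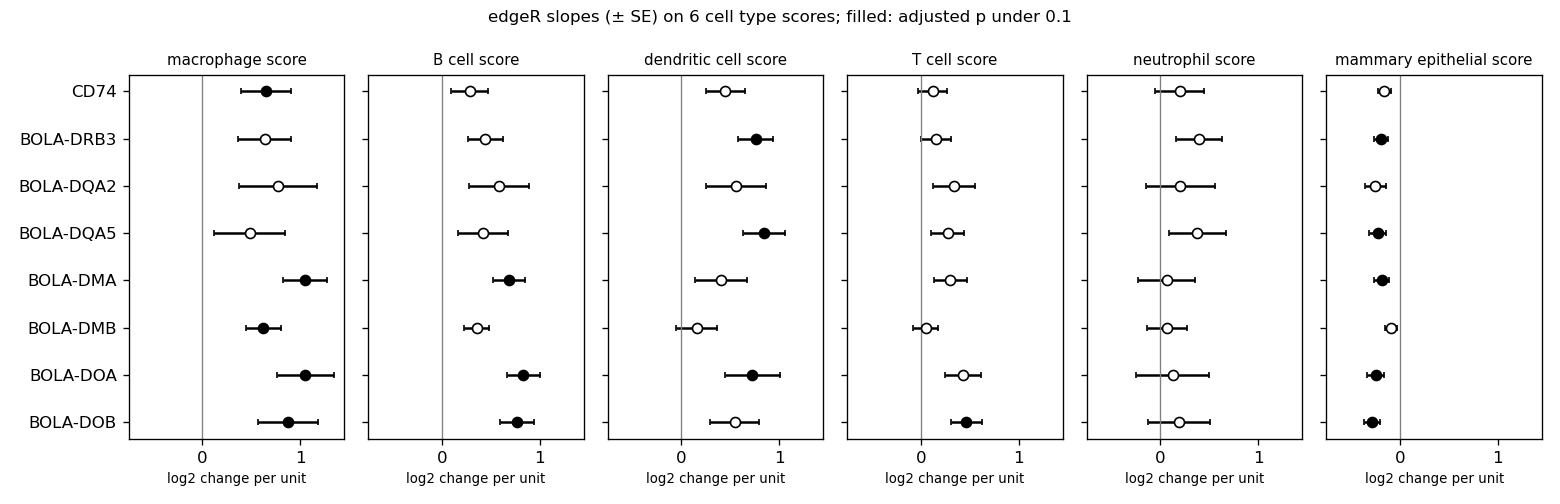
Slopes of 8 class II genes on 6 cell type scores, as log2 change per unit of score from edgeR (x axis), with bars of 1 SE and filled points for an adjusted p under 0.1. BOLA-DMA, BOLA-DMB, BOLA-DOA, BOLA-DOB and CD74 are filled for macrophages, BOLA-DMA, BOLA-DOA and BOLA-DOB for B cells, and BOLA-DRB3, BOLA-DQA5 and BOLA-DOA for dendritic cells.

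Among the DQ rows, BOLA-DQB behaved unlike the others. DQ genes differ between cattle haplotypes in number and sequence, and reads of near-identical copies may have been assigned to the wrong row or dropped as not unique, so their values are uncertain. BOLA-DQB, a DQ beta chain, had exactly 0 counts in 9 cows and between 56 and 992 counts in the other 12, with no cow in between. In HY, 4 cows had reads (cows 3014, 3057, 3064 and 3075, with 111, 357, 992 and 75 counts) and 5 had none. In LY, 8 cows had reads and 4 had none, and the share of cows with reads did not differ detectably between the groups (two-sided Fisher's exact test, p = 0.396). The cows with reads had 6.41 to 39.1 CPM, while a count of 0 in the other 9 allows at most 0.0826 to 0.589 CPM, 3 counts in each library. The cows without reads had 7878557 to 28541904 counts on genes, the deepest library (LY cow 3407) among them, and the cows with reads had 8585010 to 21356674. Of the 12333 genes, 8 had 0 counts in at least 5 cows and at least 50 counts in at least 5 cows, and BOLA-DQB was the only 1 of these with no cow between 1 and 49 counts. This search was made after the counts of BOLA-DQB had been seen.

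The DQ alpha chains BOLA-DQA2 and BOLA-DQA5 were both counted in 20 of 21 cows at 191 counts or more. BOLA-DQA2 ranged from 0 to 221 CPM in HY, with a median of 62.0, and from 34.5 to 232 CPM in LY, with a median of 104. BOLA-DQA5 ranged from 2.95 to 162 CPM in HY, with a median of 49.9, and from 18.5 to 168 CPM in LY, with a median of 61.7. Cow 3280 stood apart with 0 counts of BOLA-DQA2 and 15 of BOLA-DQA5. Across the cows the alpha chains moved together, with r = 0.927 (permutation p = 1e-05) and rho = 0.905 (permutation p = 1e-05), and r was 0.884 without the 2 cows farthest from the median of BOLA-DQA2 and 0.959 within the 16 cows. The ratio of their counts stayed between 1.05 and 2.71 in the 20 cows with both.

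Further rows outside the naming rule carry DQ beta names, LA-DQB and BLA-DQB, the latter an older name of BOLA-DQB1 in the RefSeq table. LA-DQB had 0 counts in cow 3280 and 70 to 2746 in the others, and its r with BOLA-DQA2 was 0.941 (permutation p = 1e-05, rho = 0.892, permutation p = 1e-05), with r = 0.766 without the 2 cows farthest from the median of LA-DQB and r = 0.961 within the 16 cows. BLA-DQB was counted in every cow, from 130 counts in cow 3280 to 26757 in cow 2814. BOLA-DQB did not follow the alpha chains, with r = 0.262 to BOLA-DQA2 (permutation p = 0.277).

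**Figure D4:**
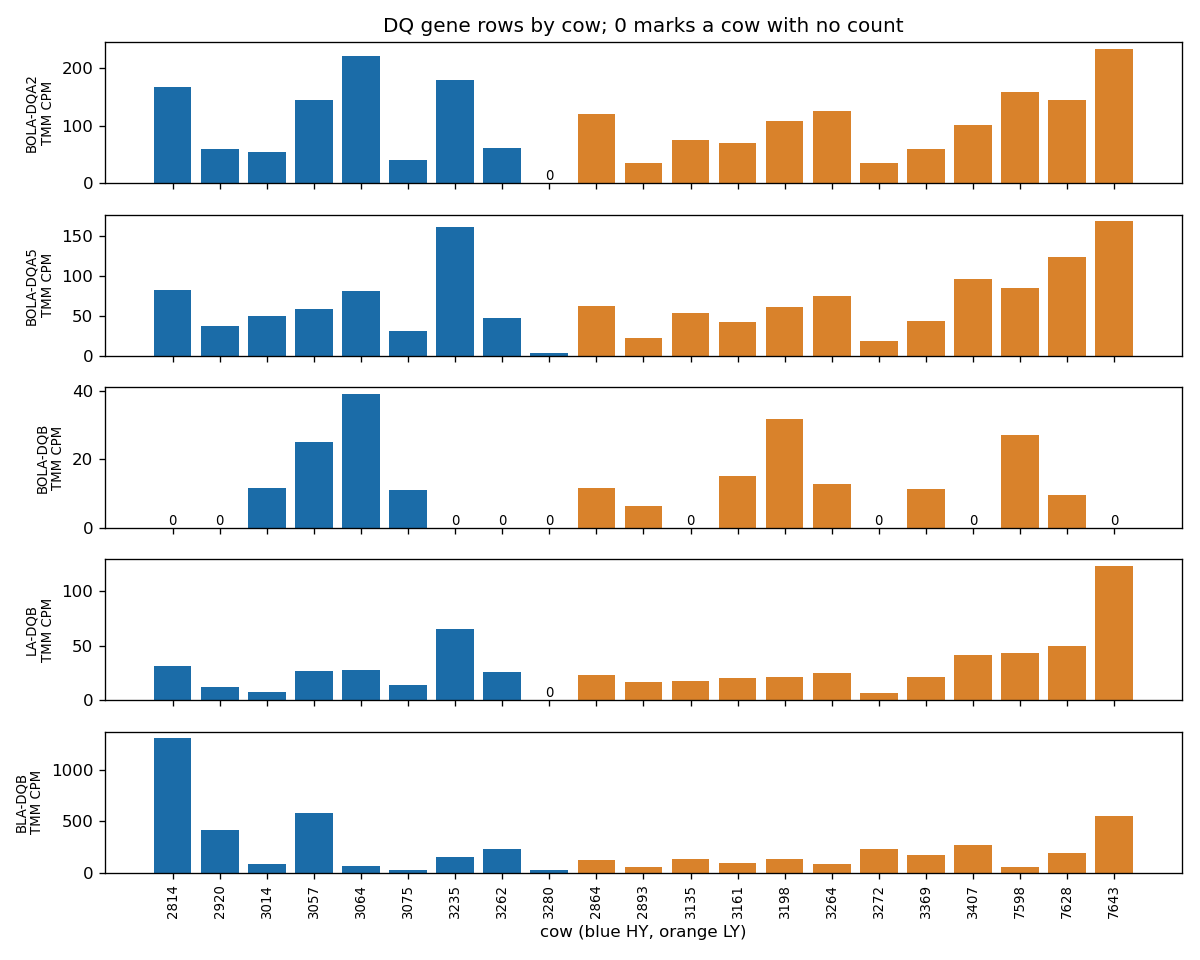
TMM CPM of 5 DQ gene rows (y axes, each on its own scale from 0) in each cow (x axis), HY in blue and LY in orange, with a 0 over cows without a count. BOLA-DQB is absent in 9 cows, while BOLA-DQA2, BOLA-DQA5 and LA-DQB share the low value of cow 3280.

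The DY genes were close to the limit of detection. BOLA-DYA had 0 to 18 counts per cow and none in 3 cows, and BOLA-DYB had 0 to 8 counts and none in 8 cows. BOLA-DYA was highest in cow 3280, at 2.75 CPM, the cow in which 6 other class II genes were lowest.

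With lactation period 6.22% of all genes were called, a number that ran from 0 to 1473 genes when 1 cow was left out, and none of the 11 class II genes was (edgeR, adjusted p under 0.1, also 0 of 11 with DESeq2). At an unadjusted p under 0.05 there were 22.3% of all genes and 1 of the 11, BOLA-DMB, at -0.34 ± 0.16 per 100 days (p = 0.0496, adjusted p = 0.223 by edgeR). Without cow 2814, sampled at 41 days, its slope was -0.17. Slopes were negative for 8 and positive for 3 of the genes, with a median of -0.15 (0.03 over all genes). CD74 had -0.15 ± 0.23 per 100 days, BOLA-DRB3 -0.13 ± 0.22 and BOLA-DMA -0.20 ± 0.22, and without cow 2814 the slopes of BOLA-DRB3 and BOLA-DMA turned to 0.05 and 0.11. BOLA-DQA2 and BOLA-DQA5 had 0.36 ± 0.32 and 0.27 ± 0.27. The r of the 11 genes with days lay between -0.328 and 0.298, with a lowest permutation p of 0.148 (rho from -0.313 to 0.346, lowest permutation p = 0.124), and between -0.28 and 0.425 within the 16 cows. The macrophage score itself had r = -0.052 with lactation period (permutation p = 0.820, rho = -0.07, permutation p = 0.763), and r = -0.074 within the 16 cows.

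**Figure D5:**
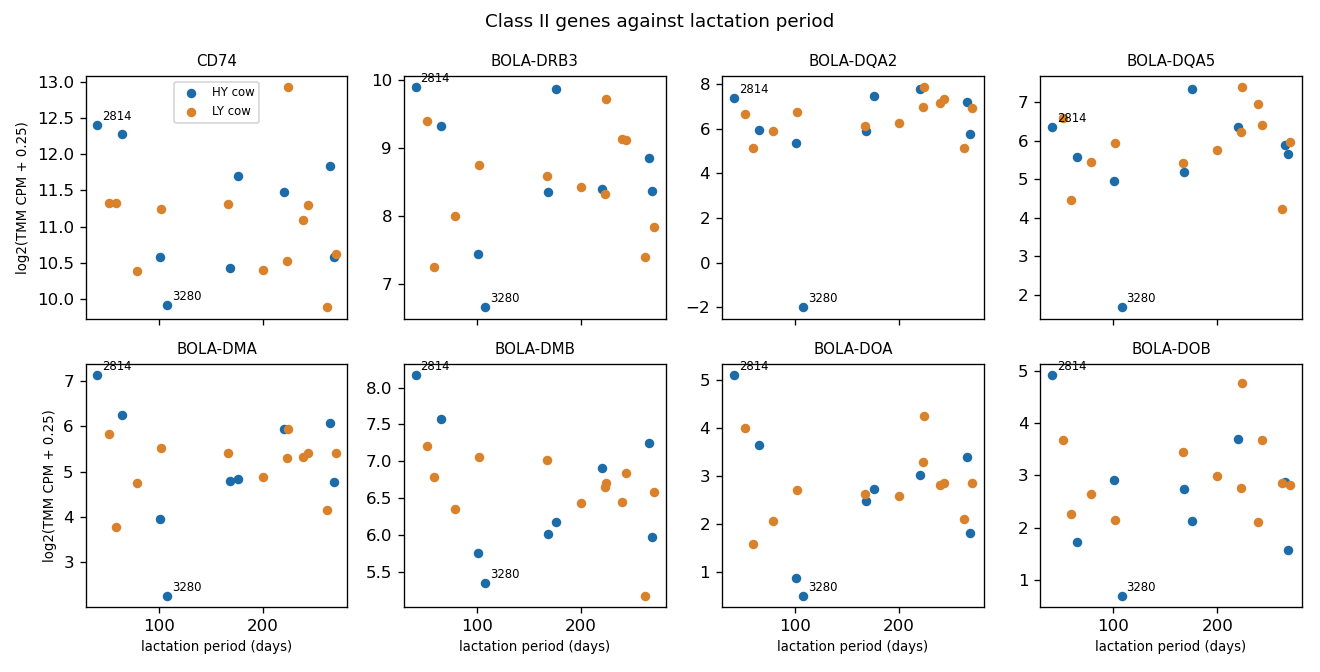
Levels of 8 class II genes, as log2(TMM CPM + 0.25), against lactation period in days, with 1 point per cow, HY in blue and LY in orange. No gene passed the threshold, and HY cows 2814 (41 days) and 3280 hold the highest and lowest points in several panels.

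No difference between HY and LY cows was detected in any class II gene. In edgeR no gene was called (0% of all genes, and 0 of 11), and at an unadjusted p under 0.05 there were 4.7% of all genes and none of the 11. DESeq2 also called none of the 11. The largest difference for a gene with a mean count of at least 100 was that of BOLA-DMA, 0.39 ± 0.39 on the log2 scale for HY over LY (p = 0.331, adjusted p = 0.999 by edgeR). Its medians went the other way, at 28.4 CPM in HY and 41.0 CPM in LY, and HY cow 2814 alone reached 139.6 CPM. CD74 had 0.22 ± 0.37 and BOLA-DQA5 -0.21 ± 0.43, the latter turning to 0.19 within the 16 cows. These p-values do not show that the groups were equal.

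Milk traits were regressed on the log2 level of each gene, as in the simple regression of the study, and none of the class II genes passed the test for any. After adjustment 0% of all genes and 0 of 11 were called for milk yield, milk fat, milk protein and milk solid alike, and 0 of 11 in edgeR with the trait as the term. At an unadjusted p under 0.05 there were 2.49% of all genes for milk yield, 2.3% for milk fat, 2.3% for milk protein and 1.65% for milk solid, and none of the 11 for any trait. The lowest p was 0.540 for milk yield (CD74), 0.244 for milk fat (BOLA-DQB), 0.368 for milk protein (BOLA-DOB) and 0.203 for milk solid (BOLA-DOB). For milk yield the r of the 11 genes lay between -0.121 and 0.142 (lowest permutation p = 0.538, rho from -0.09 to 0.151) and between -0.102 and 0.33 within the 16 cows. For milk solid, r lay between -0.289 and 0.055 (lowest permutation p = 0.203, rho from -0.317 to 0.093), and between -0.229 and 0.071 within the 16 cows. The range for milk fat was -0.266 to 0.203 (lowest permutation p = 0.243), and -0.392 to 0.439 within the 16 cows, the highest being CD74. That for milk protein was -0.207 to 0.137 (lowest permutation p = 0.369), and -0.138 to 0.298 within the 16 cows.

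Genes around class II were taken from lists. Of 16 listed regulators of class II genes 13 had a row. With the macrophage score, 2 rose and 2 fell: IRF8, a transcription factor of myeloid cells (0.63 ± 0.18, adjusted p = 0.0241 by edgeR), and RFX5, a subunit of the complex that binds class II promoters (0.50 ± 0.18, adjusted p = 0.0637 by edgeR), rose, while the kinase JAK1 (-0.56 ± 0.15, adjusted p = 0.0127 by edgeR) and CREB1 (-0.63 ± 0.24, adjusted p = 0.0813 by edgeR) fell. Over all genes 10.1% rose and 11.5% fell. The median slope of the regulators was 0.08. RFX5 was called in 16 of the 21 fits with 1 cow left out, with a slope of 0.31 (adjusted p = 0.273 by edgeR) without cow 3280. IRF8 was not called without cow 3280 (0.110). CREB1 was called in 15 of the 21 fits, its highest adjusted p being 0.225 without cow 3014. Of 10 of 11 antigen processing genes with a row, 3 rose and 0 fell with the macrophage score, the endosomal proteases LGMN (0.91 ± 0.16, adjusted p = 0.000815 by edgeR), CTSB (0.77 ± 0.22, adjusted p = 0.0199 by edgeR) and CTSC (0.47 ± 0.15, adjusted p = 0.0397 by edgeR, and 0.112 without cow 2814), with a median slope of 0.45 against 0.01 over all genes. Of the 7 of 9 genes of T cell contact with a row, LAG3, a class II receptor of T cells, rose (1.35 ± 0.36, adjusted p = 0.0153 by edgeR). Without cow 2814 its slope was 0.45 and its adjusted p 0.585.

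With the dendritic cell score, 5 of the 7 T cell contact genes rose and 0 fell, among them CD40, the receptor for T cell help (0.86 ± 0.15, adjusted p = 0.000513 by edgeR), and the costimulator CD80 (0.99 ± 0.28, adjusted p = 0.015 by edgeR). Over all genes 12.7% rose and 12.9% fell with this score. The median slope of the 7 genes was 0.68, against 0.03 over all genes. Over lactation, 0 of 13 regulators and 0 of 10 processing genes were called in edgeR, with 0 and 1 of them at an unadjusted p under 0.05. CD80 was called, rising by 1.01 ± 0.27 per 100 days (adjusted p = 0.0661 by edgeR, 0.237 without cows 3262 and 3280, and 0.156 without cow 2893). Between HY and LY and with milk yield, 0 genes of the 3 lists were called, and 0 had an unadjusted p under 0.05.

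The genes whose levels followed class II most closely were looked for among 7370 others with a mean count of at least 100, by r with the mean log2 level of 9 class II genes over the 21 cows. The 9 include BOLA-DQB, which had 0 counts in 9 cows and r of only -0.203 to 0.262 with the other 8. The ranking therefore also reflects the BOLA-DQB pattern, and not only the level shared by the other 8. LA-DQB came first, with r = 0.870, followed by HK3, a hexokinase, and FES, a tyrosine kinase, both with r = 0.853. TAF6 (0.849), PDLIM2 (0.839), SCAMP4 (0.820), NCKAP5L (0.817), LOC512150 (0.813) and CYP2S1 (0.809) were also among the 10 highest. These r values describe the highest of 7370 and share the low levels of cow 3280. CSF1R ranked 133 with r = 0.685, and IRF8 ranked 177 with r = 0.669.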

How the data were processed

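Total RNA of milk somatic cells from 21 Holstein cows was sequenced on the Illumina HiSeq platform. The authors trimmed the reads with Trimmomatic, mapped them to bosTau7 with Bowtie2 in TopHat2 and used HTSeq to assign them to genes, and they deposited whole-number counts per gene and cow, not normalized. Rows that name no gene were left out. Reads marked as not uniquely aligned were not counted on genes, which may lower the counts of near-identical DQ copies.

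The class II genes and all gene lists were chosen with earlier results of these data known. Named genes are all class II genes, the list genes that were called, and genes among the 10 closest in level to class II. Some items are not reported here. Counts were tested with edgeR 4.0.16 (TMM, quasi-likelihood) over the 12333 genes counted in any cow, with lactation period (per 100 days), group or a cell type score as the term. A score is the mean log2(TMM CPM + 0.25) over listed markers with a mean count of at least 10. Marker genes of a score were left out of its counts of genes called. Traits were regressed on log2(TMM CPM + 0.25). Genes were called at a Benjamini-Hochberg adjusted p under 0.1. Permutation p-values of correlations used 100000 permutations, two-sided, 11 relations per score or trait, and are not adjusted. The smallest they can give is 1e-05. The tests were tried on simulated counts. Alternatives were other size factors, a minimum mean count of 10, DESeq2 1.42.0, the 16 cows of lower mapping rate, covariates, another pseudocount and each cow left out. The fits without cows 3262 and 3280, those with a cell type score as covariate and all alternatives for scores other than macrophage were chosen after seeing the data. Depth was 7878557 to 28541904 counts per cow, and limits from counts of 0 cover counting error only.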

Additional observations from a re-analysis of the deposited data

Results flagged for a closer look

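Of the 9 class II genes with a mean count of at least 10, BOLA-DQA2 and BOLA-DQA5 had an HY cow far from the other 8. In both it was cow 3280. The gap to the next cow was 0.752 of the whole range of log2 levels for BOLA-DQA2 and 0.578 for BOLA-DQA5. Both lie above Dixon's critical value for 9 samples. Chance alone passes it in about 1 of 20 groups, and the LY group was too large for it.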

How the results depend on the processing

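Across the alternatives no class II gene was called for lactation period, group or any milk trait, and among the named effects of all comparisons the sign changed for 3: BOLA-DQA5 between HY and LY (0.193 within the 16 cows, 0.006 without cows 3262 and 3280), and BOLA-DMA and BOLA-DRB3 with lactation period without cow 2814 (-0.291 to 0.108 and -0.193 to 0.048 with a cow left out). With the macrophage score, 6 class II genes were called, against 3 without cows 3262 and 3280, and 1 to 7 with a cow left out. With the B cell, dendritic cell or mammary epithelial score as covariate, 1, 6 (not all the same genes) and 2 were called. All genes called with the macrophage score numbered 933, 2605 and 606 under these covariates in this order, and 1825 to 3047 with a cow left out. With the B cell score 1 class II gene was called without cows 3262 and 3280, and 0 to 5 with a cow left out. With the T cell score 0 were called within the 16 cows and without cows 3262 and 3280, and 0 to 2 with a cow left out. The ranges were 2 to 6 for dendritic cells and 2 to 8 for mammary epithelium. CD74 lost its call with the macrophage score under RLE size factors (adjusted p = 0.134) and with parity and lactation period as covariates (adjusted p = 0.121).

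Of all genes, 767 were called for lactation period, 1679 by DESeq2, 34 within the 16 cows, 1 with parity and group as covariates, 2 without cows 3262 and 3280 and 0 to 1473 with a cow left out. Genes at p under 0.05 were 1621 for lactation period without cows 3262 and 3280 and 2094 to 3119 with a cow left out. For the group they were 189 with a mean count of at least 10, 367 by DESeq2 and 508 to 677 with a cow left out. With that minimum count they were 200 for milk yield, 110 for fat, 141 for protein and 133 for solid (386 by edgeR), and with a cow left out 265 to 484, 223 to 466, 214 to 383 and 169 to 292. The cause of these changes was not tested. No paired analysis was possible because replicate numbers only name the cows. Depth limits BOLA-DYA and BOLA-DYB, with at most 18 counts per cow.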
